A study of Rattus norvegicus with 8 samples.

Results

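Cytoskeletal actins and tubulins were followed in perfused rat liver as 10 genes: the cytoplasmic actins Actb and Actg1, the alpha-tubulins Tuba1a, Tuba1b and Tuba1c, and the beta-tubulins Tubb2a, Tubb2b, Tubb4b, Tubb5 and Tubb6. They were taken from the array by symbol, with the brightest probe set (a group of probes summarised to 1 value) standing for a gene that has several, and all 10 were found among 14506 named genes. Livers of male Wistar rats aged 6 to 10 weeks were perfused, that is, kept alive outside the body by pumping a buffer through their vessels, and every sample carries the time point of 120 min. In 4 samples the Krebs-Henseleit buffer was normoosmotic (305 mosm/L) and in 4 it was hypoosmotic (225 mosm/L), a condition in which water enters cells and they swell. No other agent or allele is named in the labels, and nothing says whether the 4 samples of a group were separate animals, so a p-value here speaks of these samples and their spread, part of which can be technical.

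Actin monomers join into filaments under the cell membrane and around the bile canaliculi of hepatocytes, and monomers and filaments are in steady exchange. Dimers of alpha- and beta-tubulin assemble into microtubules, the tracks along which hepatocytes move vesicles to the canalicular membrane. Both families regulate their own messages: free actin monomers hold back cofactors of serum response factor, which drives actin genes, and free tubulin dimers trigger the decay of tubulin mRNA. The question put to the data is whether the amounts of these transcripts differ between the buffers.

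RefSeq promoter windows run from 250 bases before to 50 after the annotated start and are read from the GRCr8 assembly. They were found for 9 of the 10 genes, all but Actb. Of them 3 are printed, for the actin gene with the larger difference and for the pair of tubulin genes whose groups did not overlap. Capitals mark matches on either strand to the CArG box (the site bound by serum response factor), CCAAT, the GC box GGGCGG and the TATA box TATAAA. The Actg1 window lies at chr10:106120902-106121201 on the minus strand, the Tubb2a window at chr17:31001936-31002235 on the plus strand and the Tubb4b window at chr3:28438406-28438705 on the minus strand.
Actg1: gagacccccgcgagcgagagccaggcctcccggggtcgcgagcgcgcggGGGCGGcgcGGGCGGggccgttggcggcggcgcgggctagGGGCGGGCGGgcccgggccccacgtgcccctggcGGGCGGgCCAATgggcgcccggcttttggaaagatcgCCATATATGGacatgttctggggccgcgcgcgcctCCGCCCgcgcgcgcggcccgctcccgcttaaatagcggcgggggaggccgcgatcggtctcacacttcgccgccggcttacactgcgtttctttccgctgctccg
Tubb2a: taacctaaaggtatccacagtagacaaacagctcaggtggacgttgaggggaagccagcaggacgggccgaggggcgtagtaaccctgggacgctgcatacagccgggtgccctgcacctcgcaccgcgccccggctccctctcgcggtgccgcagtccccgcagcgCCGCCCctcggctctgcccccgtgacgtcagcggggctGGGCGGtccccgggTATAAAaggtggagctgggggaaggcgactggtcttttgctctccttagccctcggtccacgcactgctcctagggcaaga
Tubb4b: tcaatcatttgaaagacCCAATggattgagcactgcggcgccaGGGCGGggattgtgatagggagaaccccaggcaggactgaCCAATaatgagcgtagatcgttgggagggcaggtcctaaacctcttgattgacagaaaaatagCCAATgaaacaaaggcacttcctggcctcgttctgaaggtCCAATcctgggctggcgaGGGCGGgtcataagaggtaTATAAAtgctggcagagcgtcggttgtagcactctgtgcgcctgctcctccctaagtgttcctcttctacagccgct

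The CArG box was found in 1 of the 9 windows, that of Actg1, where it starts 90 bases before the annotated start. Actb, the other actin gene, had no window to search, so the remaining windows are all of tubulin genes. Among all 33469 RefSeq windows of the same length, 1.64% hold this motif. CCAAT was found in 8 of the 9 windows against 37.5% of all windows, and Tubb4b holds 4 copies. The GC box was also found in 8 of the 9, against 33.1% of all windows. Actg1 holds 6 copies, of which 1 pair overlaps, and no match overlapped a match to another motif. The TATA box was found in Tubb2a, 31 bases before the start, and in Tubb4b, 27 bases before it, against 14.2% of all windows. Only the exact letters TATAAA were counted, and variants of this box, which other windows may hold, were not searched. A match describes letters in the window, and binding was not measured here.

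**Figure D1:**
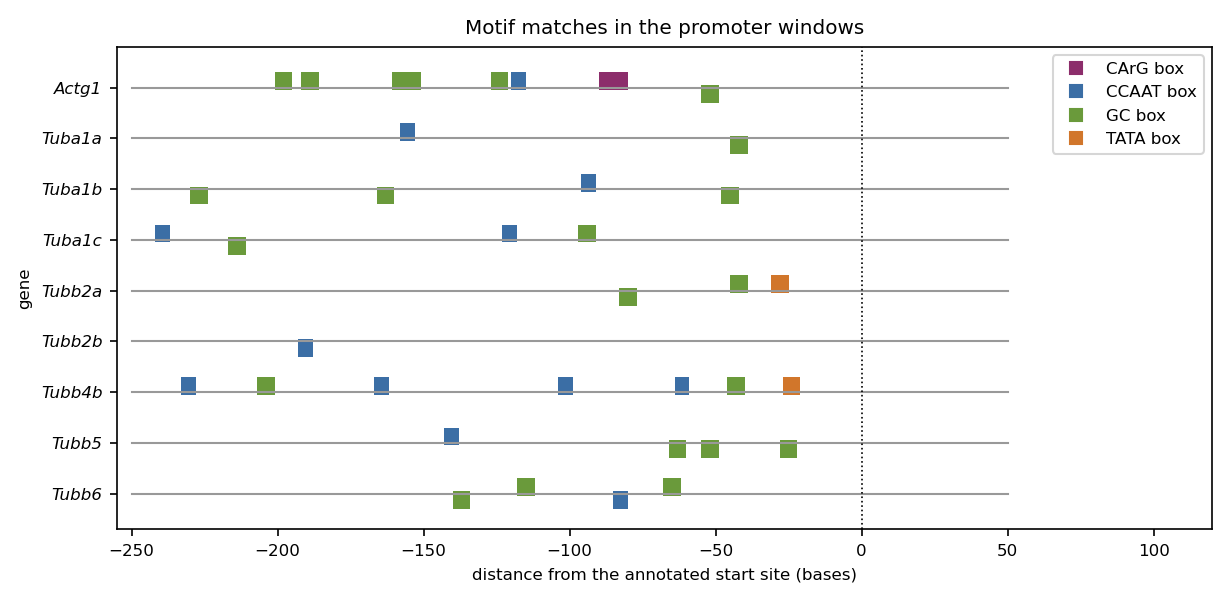
Matches to 4 promoter motifs in the windows of 9 actin and tubulin genes, by distance in bases from the annotated start (dotted line at 0). Marks above a line are on the strand of the gene and marks below it on the opposite strand. Of these windows that of Actg1 alone holds the CArG box, and no window was found for Actb.

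Neither actins nor tubulins passed the test over all genes. The actin genes had higher mean values in hypoosmotic samples, and 6 of the 8 tubulin genes had lower ones, where 41.4% of all genes had a change below 0. By limma, a linear model with a shared estimate of the spread, 0 of the 10 genes had an adjusted p under 0.05 (Benjamini-Hochberg over all genes), where 1.98% of the 14506 genes did, 0.558% higher and 1.42% lower. At an unadjusted p under 0.05 there were 5 of the 10, against 14.6% of all genes. Actg1 was on the higher side (6.6% of all genes) and Tubb2a, Tubb4b, Tuba1b and Tuba1c on the lower side (7.97%). The median log2 change (hypoosmotic minus normoosmotic) was −0.22 over the 10 genes and −0.31 over the 8 tubulins, against 0.04 over all genes.

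Whole liver was measured, so fewer cells of a type and less RNA per cell cannot be told apart. The hepatocyte markers Alb, Apoa1, Ttr, Cps1, Cyp2e1 and Ass1 had mean log2 values between 11.6 and 13.05, at the bright end of the table, whose highest value is 13.26. The log2 of their summed linear values was 14.75 to 14.81 in normoosmotic and 14.62 to 14.83 in hypoosmotic samples. Array medians lay between 4.05 and 4.16. Each gene is measured by probes of its own, so values are compared between arrays and not between genes. Probes for these closely similar genes may also bind a paralog or pseudogene transcript, which was not tested.

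Actb encodes beta-actin, the cytoplasmic actin often used as a reference gene. Its log2 values were 10.55, 10.93, 11.25 and 11.32 in normoosmotic replicates 1 to 4 and 11.26, 11.32, 11.28 and 11.42 in hypoosmotic replicates 1 to 4. The groups overlapped through normoosmotic replicate 4 alone. The other normoosmotic samples lay below every hypoosmotic one, the nearest at 11.25 against 11.26. The means were 11.01 ± 0.35 and 11.32 ± 0.07 (SD, n = 4 each). The log2 change of 0.31, with limits of −0.03 and 0.64 (95%, limma), is 1.24-fold (0.98 to 1.56), and the adjusted p was 0.400.

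Actg1 encodes gamma-actin, the other cytoplasmic actin. Its log2 values were 10.47, 11.15, 11.91 and 11.48 in normoosmotic replicates 1 to 4 and 11.69, 12.00, 11.72 and 11.96 in hypoosmotic replicates 1 to 4. The hypoosmotic samples lay close together at the upper end, while the normoosmotic ones ran from the lowest value of all to one within the hypoosmotic range. The mean was 11.25 ± 0.61 against 11.84 ± 0.16 (SD, n = 4 each). The difference of the means, 0.59 ± 0.23 (SE) on the log2 scale, is 1.51-fold (95% interval 1.06 to 2.14), and limma's adjusted p was 0.251. A change at least as large was seen in 2.64% of all genes.

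Both differences rested partly on normoosmotic replicate 1. Without it the log2 change was 0.15 for Actb and 0.33 for Actg1 (limma, adjusted p = 0.707 and 0.492). Other omissions raised them, to 0.41 for Actb without normoosmotic replicate 4 and 0.81 for Actg1 without normoosmotic replicate 3. Limma's adjusted p-values there were 0.232 and 0.0939. Actg1 has 6 probe sets, whose log2 changes lay between 0.53 and 0.59. After each was centred on its own mean, the largest difference between any pair of them on 1 array was 0.1025. The spread of Actg1 within groups, a pooled SD of 0.44, was larger than that of 98.2% of genes, and that of Actb, 0.25, larger than that of 78.9%. In both genes the spread lay mostly in the normoosmotic samples, whose range was 0.77 for Actb and 1.44 for Actg1, against 0.16 and 0.31 in the hypoosmotic samples.

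The difference between the actins was compared within each array. Actb minus Actg1 was 0.08, −0.22, −0.66 and −0.16 in normoosmotic replicates 1 to 4 and −0.43, −0.68, −0.44 and −0.54 in hypoosmotic replicates 1 to 4. The groups overlapped through normoosmotic replicate 3. The mean changed from −0.24 to −0.52, a difference of −0.28 (exact two-sided permutation test over 70 relabellings, p = 0.143), where the smallest p this design allows is 0.0286. With 1 array left out it ranged from −0.42, without normoosmotic replicate 3, to −0.18, without normoosmotic replicate 1 (exact permutation p = 0.0286 and 0.286), and the exact p was 0.171 to 0.314 without any 1 of the other 6 arrays. Leaving out normoosmotic replicate 3, the array through which the groups overlap, separates them by construction.

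**Figure D2:**
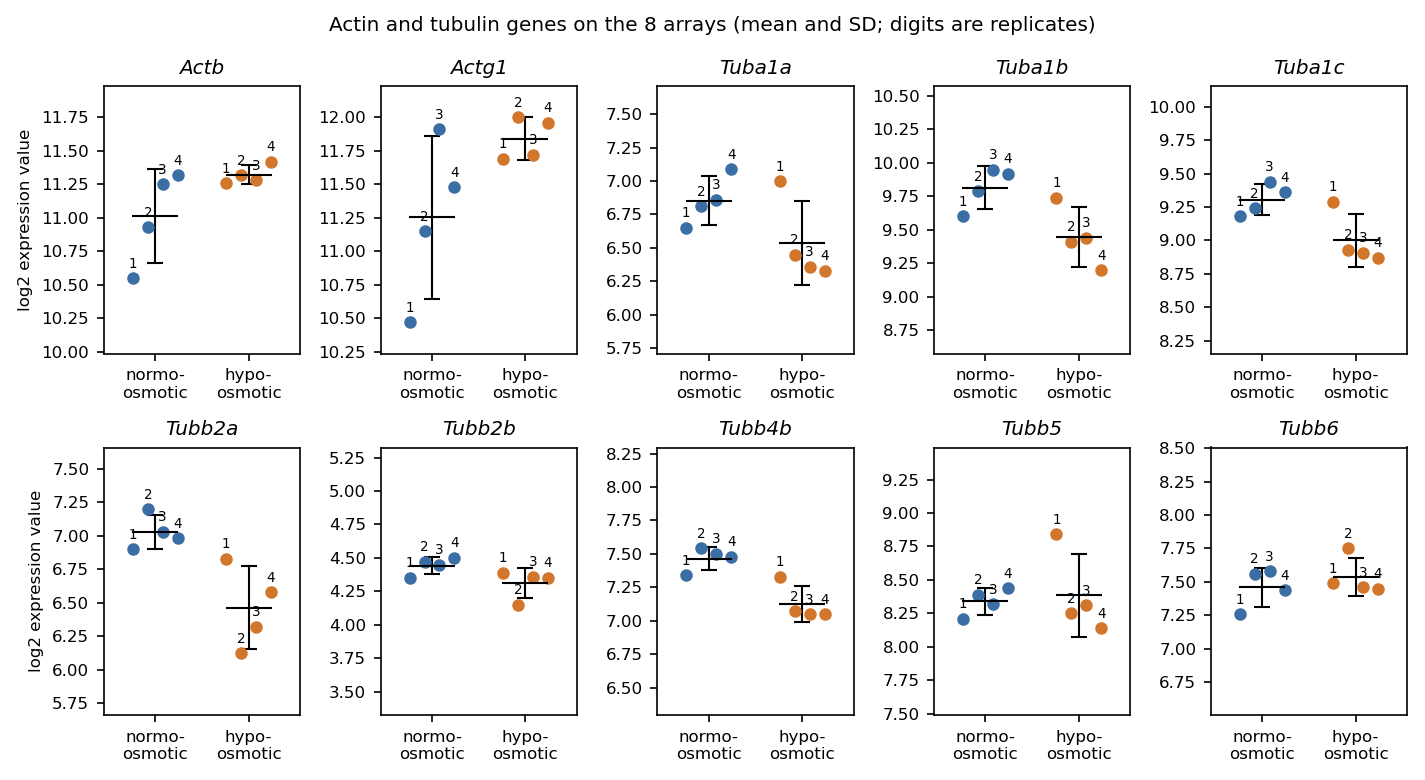
Log2 expression values of the 10 genes on each array, in normoosmotic (blue) and hypoosmotic (orange) samples, with replicate numbers beside the points and the mean and SD in black. Every panel spans 2 log2 units. Actg1 ranges from 10.47 to 11.91 over the normoosmotic samples, and in Tubb2a and Tubb4b the groups do not overlap.

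Among the beta-tubulins, Tubb2a had the largest difference of the 8 tubulin genes. Its log2 values were 6.90, 7.20, 7.03 and 6.98 in normoosmotic replicates 1 to 4 and 6.83, 6.12, 6.32 and 6.58 in hypoosmotic replicates 1 to 4. Every hypoosmotic value was below every normoosmotic one, with hypoosmotic replicate 1 the nearest to them. The means were 7.03 ± 0.13 and 6.46 ± 0.31 (SD, n = 4 each). Their difference, −0.565 ± 0.15 (SE) on the log2 scale, is 0.676-fold (95% interval 0.541 to 0.845). Its adjusted p by limma was 0.0730, and 0.0420 without hypoosmotic replicate 1, where the log2 change was −0.69. Over all alternatives the adjusted p ran from 0.0420 to 0.215. A change of at least this size was seen in 3.03% of all genes.

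Tubb4b, a widely expressed beta-tubulin, read 7.34, 7.54, 7.50 and 7.48 in normoosmotic replicates 1 to 4 and 7.33, 7.07, 7.05 and 7.05 in hypoosmotic replicates 1 to 4. The groups were apart by 1 hundredth of a unit, since hypoosmotic replicate 1 stood beside normoosmotic replicate 1. The log2 change was −0.34 ± 0.11 (SE; limma, adjusted p = 0.149). Groups that do not overlap were found in 2 of the 10 genes, Tubb2a and Tubb4b, both lower. Over all genes the share was 8.27%, with 5.05% lower.

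Tubb2b, a beta-tubulin best known from neurons, was dim at 4.35 to 4.50 in normoosmotic samples and 4.15 to 4.39 in hypoosmotic ones. Its log2 change was −0.13, between 95% limits of −0.36 and 0.10, and limma's adjusted p was 0.645. Without hypoosmotic replicate 2, the lowest sample, the change was −0.076. Tubb5, another widely expressed beta-tubulin, read 8.21, 8.39, 8.32 and 8.44 in normoosmotic replicates 1 to 4 and 8.84, 8.25, 8.31 and 8.14 in hypoosmotic replicates 1 to 4. Hypoosmotic replicate 1 was the highest of the 8 samples, and the other hypoosmotic values lay within or just below the normoosmotic range. Its log2 change was 0.045 (95% interval −0.27 to 0.36), and it lay between −0.11, without hypoosmotic replicate 1, and 0.13, without hypoosmotic replicate 4, when 1 array was left out. Tubb6, a beta-tubulin expressed in many tissues, spanned 7.26 to 7.58 in normoosmotic and 7.45 to 7.75 in hypoosmotic samples, with a log2 change of 0.08 (−0.18 to 0.33). The change was 0.011 without normoosmotic replicate 1, 0.0067 without hypoosmotic replicate 2 and 0.12 without normoosmotic replicate 3.

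The 3 alpha-tubulins had changes of similar size. Tuba1a, the main alpha-tubulin of developing brain and present in many tissues, read 6.65, 6.81, 6.86 and 7.09 in normoosmotic replicates 1 to 4 and 7.00, 6.45, 6.36 and 6.33 in hypoosmotic replicates 1 to 4. Tuba1b, a widely expressed alpha-tubulin, read 9.60, 9.79, 9.95 and 9.92 and then 9.74, 9.41, 9.44 and 9.20 in the same order. In both genes hypoosmotic replicate 1 lay within the normoosmotic range and the other hypoosmotic samples below it. Tuba1c, closely similar in its protein, read 9.18, 9.24, 9.44 and 9.36 in normoosmotic replicates 1 to 4 and 9.29, 8.93, 8.91 and 8.87 in hypoosmotic replicates 1 to 4, with the same arrangement.

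The log2 changes were −0.32 for Tuba1a (95% interval −0.66 to 0.02), −0.37 for Tuba1b (−0.66 to −0.08) and −0.305 for Tuba1c (−0.57 to −0.04). Limma's adjusted p-values were 0.383, 0.203 and 0.265. Tuba1b has another probe set, 10907082, which read 7.94, 7.78, 8.09 and 7.93 in normoosmotic replicates 1 to 4 and 7.63, 7.52, 7.72 and 7.21 in hypoosmotic replicates 1 to 4. There the groups did not overlap, and the log2 change was −0.415 (limma over all probe sets, adjusted p = 0.172).

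**Figure D3:**
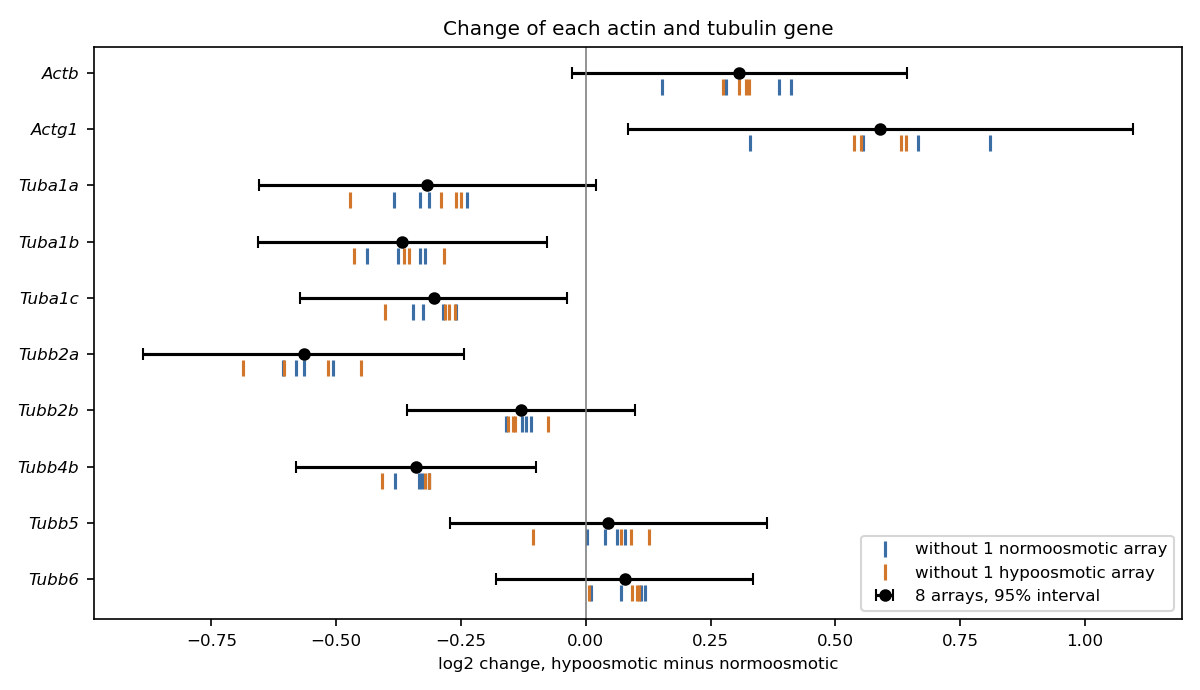
Log2 change of each gene, hypoosmotic minus normoosmotic, with its 95% interval from limma (black) and the values with 1 normoosmotic (blue) or 1 hypoosmotic array (orange) left out. The interval includes 0 for Actb, Tuba1a, Tubb2b, Tubb5 and Tubb6, and without hypoosmotic replicate 1 the value of Tubb5 changes sign.

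The same arrays stood out in many of the genes. Normoosmotic replicate 1 had the lowest normoosmotic value in 10 of the 10 genes, as it had in 26.5% of all genes, although in the second probe set of Tuba1b replicate 2 was lowest. Hypoosmotic replicate 1 had the highest hypoosmotic value in 7 of the 8 tubulins and in 20.9% of all genes. In the second probe set of Tuba1b hypoosmotic replicate 3 was highest, at 7.72. Hypoosmotic replicates 2, 3 and 4 lay below every normoosmotic sample in 6, 5 and 6 of the 8 tubulins, and hypoosmotic replicate 1 in 2. Over all genes these shares were 19.4%, 23.1%, 19.5% and 21.5%. By the second probe set of Tuba1b hypoosmotic replicate 1, at 7.63, also lay below every normoosmotic sample. The tubulins are related genes measured on the same arrays, so these counts describe the arrays and are no replicate of each other.

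Levels of other cell types were read on the same arrays, as the log2 of the summed linear values of each marker list. Their ranges overlapped between groups, with 9.82 to 10.55 in normoosmotic and 9.94 to 10.27 in hypoosmotic samples for 9 stellate cell markers and 8.98 to 9.53 against 9.05 to 9.68 for 6 Kupffer cell markers. For 3 of 6 sinusoidal endothelial markers (Lyve1, Kdr and Pecam1) they were 9.16 to 9.75 and 9.39 to 9.70, and normoosmotic replicate 1 was the lowest of the 8 samples. For 3 proliferation markers (Cdk1, Top2a and Ccnb1) they were 5.69 to 6.15 and 5.75 to 6.66, with normoosmotic replicate 1 lowest and hypoosmotic replicate 1 highest. For 5 leukocyte markers the ranges were 6.52 to 6.72 and 6.48 to 6.94, and for 3 cholangiocyte markers 6.68 to 7.23 and 6.37 to 7.26. The lowest and highest log2 changes were −0.455 (Reln) and 0.26 (Acta2) for stellate cells and −0.10 (Adgre1) and 0.36 (Clec4f) for Kupffer cells. They were 0.14 (Kdr) and 0.21 (Lyve1) for endothelial cells, and 0.035 (Ccnb1) and 0.27 (Cdk1) for proliferation. For leukocytes they were −0.145 (S100a9) and 0.305 (S100a8), for cholangiocytes −0.145 (Krt19) and 0.09 (Krt7), and for hepatocytes −0.235 (Cyp2e1) and 0.04 (Ass1). Limma's adjusted p for Reln was 0.242. No marker was listed at 0, and the part of these cells in the values of the actin and tubulin genes was not tested.

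**Figure D4:**
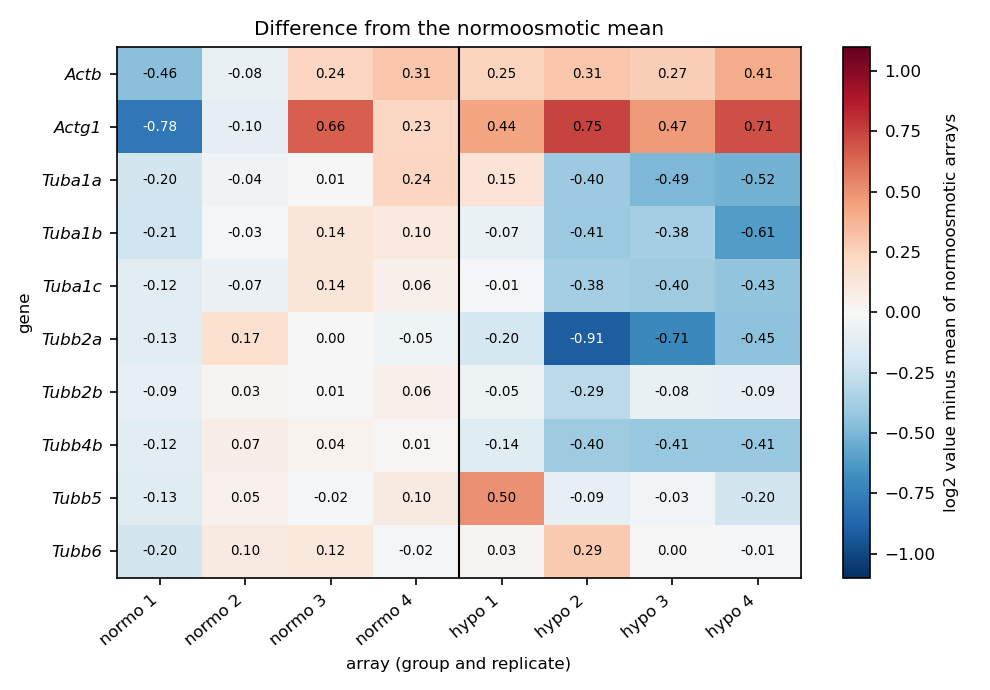
Log2 value of each gene on each array minus the mean of the 4 normoosmotic arrays. The column of normoosmotic replicate 1 is negative in every row, and Tuba1a, Tuba1b, Tuba1c, Tubb2a and Tubb4b are low mainly in hypoosmotic replicates 2, 3 and 4.

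Profiles over the 8 arrays were compared by the root mean square difference of log2 values, each gene centred on its own mean, for the 3 genes with the largest spread. Of all genes, the nearest to Actg1 was Srf, the serum response factor gene (probe set 10921550), at a difference of 0.125. Srf read 6.27, 6.64, 7.69 and 7.14 in normoosmotic replicates 1 to 4 and 7.19, 7.44, 7.31 and 7.62 in hypoosmotic replicates 1 to 4, and so shared with Actg1 a low normoosmotic replicate 1 and a high replicate 3. Its log2 change was 0.455 (95% interval crossing 0, limma adjusted p = 0.420), and its actin-sensing cofactors Mrtfa and Mrtfb are not analysed here. Next came the linker histone gene H1f5, at 0.165, and the dim defensin gene Defb37, at 0.204, and Actb was the 7th nearest, at 0.246.

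For Tuba1a the nearest genes were Tuba1c, at a difference of 0.1119, and Tuba1b, at 0.1124, followed by the ribonuclease subunit gene Rnaseh2b, at 0.1126. Tubb4b was the 10th nearest to Tuba1a. Only the brighter of the 2 probe sets of Tuba1b was compared. After centring, these 2 differed by up to 0.24 on 1 array. Whether probes for one alpha-tubulin also bind the transcript of another was not tested. For Tubb2a the nearest were the splicing factor gene Luc7l2 (0.108), the transcription factor gene Rfx7 (0.117) and the kinase gene Hipk1 (0.120). Of these, Luc7l2 fell by 0.54 and Hipk1 by 0.56 on the log2 scale (limma, adjusted p = 0.0495 and 0.0465), and Rfx7 had a change of −0.58 with an adjusted p of 0.0793. Tubb4b, the nearest tubulin to Tubb2a, was 90th in that order.

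Other genes of the cytoskeleton were read from 11 lists, and cell types from 7. Over the 18 lists 165 genes were measured, of which 0 had an adjusted p under 0.05 and 21 an unadjusted p under 0.05 (limma), 7 higher and 14 lower, against the 14.6% of all genes. Krt8, a keratin of hepatocyte intermediate filaments, had the smallest p, with means of 9.23 ± 0.18 and 8.73 ± 0.19 (SD, n = 4 each) and a log2 change of −0.50. Its adjusted p by limma was 0.0730, and 0.0498 where the prior was trended and robust. Of the 6 intermediate filament genes, Lmna, a nuclear lamin, had the highest change, 0.325, and 3 of the 6 were on each side of 0. Krt18, the partner keratin of Krt8, was chosen after its values were seen and had a change of −0.265.

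The other tubulins, 9 measured, had a median log2 change of 0.02, from −0.265 for Tuba4a to 0.28 for Tube1, the epsilon-tubulin of centrioles, and 0 of them had an unadjusted p under 0.05. The 4 muscle actins were all above 0, where 41.4% of all genes were below it, and had a median of 0.23. They ran from 0.19 for Acta1, the skeletal form, to 0.385 for Actg2, the enteric smooth muscle form. Their adjusted p-values lay between 0.379 and 0.592.

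In the list of proteins that bind actin monomers or turn filaments over, 18 were measured with a median of 0.05. The highest was Tmsb10, a monomer-sequestering thymosin, at 0.365, and the lowest Cfl2, a cofilin that severs filaments, at −0.555. Of 21 genes of actin cross-linking and the cortex, with a median of 0.05, the highest was the tropomyosin gene Tpm4, at 0.405 (limma, adjusted p = 0.0768). Tpm4 read 8.19 to 8.43 in normoosmotic samples and 8.64 to 8.88 in hypoosmotic ones, so that the groups did not overlap. The lowest was Actn1, an alpha-actinin, at −0.50. The 12 genes of the Arp2/3 complex, which starts filament branches, and of actin-related proteins had a median of −0.035. They ran from −0.31 for Actr1b to 0.16 for Actr3. As for Tpm4, the groups did not overlap for Krt8, Cfl2 and Actr1b, all lower in hypoosmotic samples. Of the 165 genes in the lists 10 had groups that did not overlap, against 8.27% of all genes.

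On the microtubule side, 15 microtubule-associated proteins had a median of −0.17, with 12 of them below 0, against 41.4% of all genes. They ran from −0.43 for Map7, which recruits kinesin, to 0.21 for Stmn1, which sequesters tubulin dimers. Of the 15, 2 had an unadjusted p under 0.05 (limma), both lower, against 14.6% of all genes in either direction. The 18 motor genes had a median of 0.01, from −0.32 for Kif5b, a kinesin heavy chain, to 0.34 for Dctn1, a dynactin subunit. The 18 genes of actin and tubulin folding and of tubulin autoregulation had a median of −0.05, from −0.305 for Tbcc to 0.16 for Tbcb, both tubulin folding cofactors. The 10 genes of tubulin modification had a median of 0.06, from −0.13 for Vash2, a tubulin detyrosinating enzyme, to 0.165 for Ttll12.

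**Figure D5:**
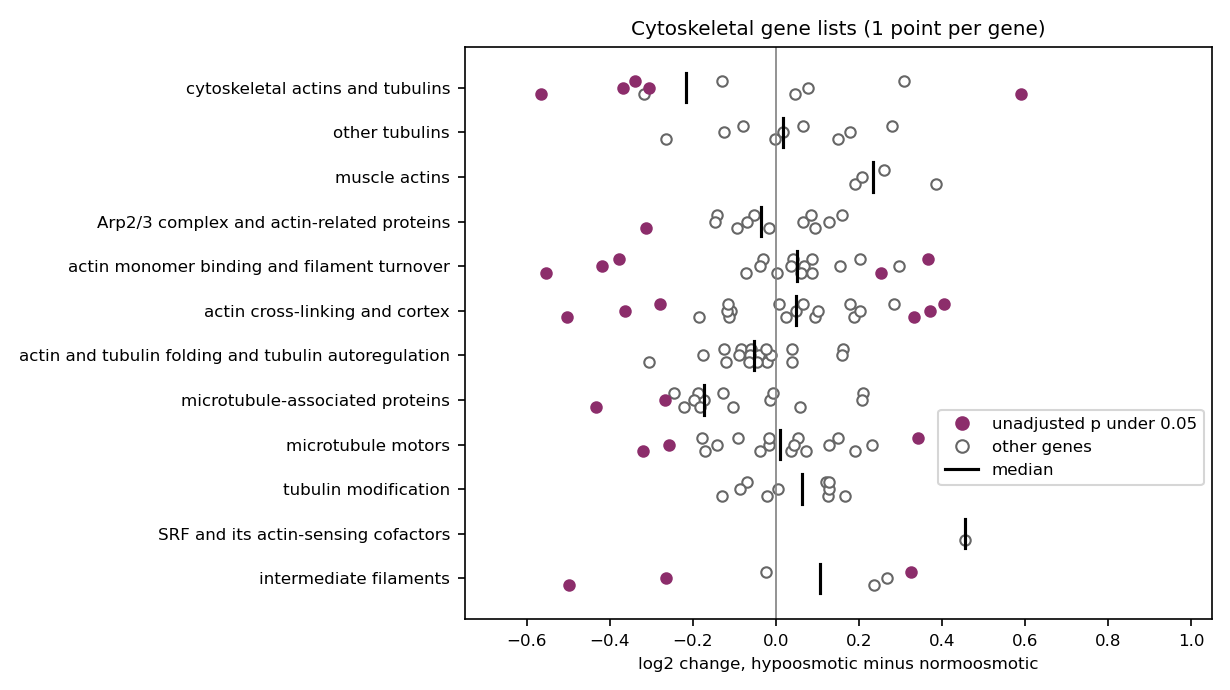
Log2 changes of the 10 actin and tubulin genes and of 11 cytoskeletal lists, with 1 point per gene, filled where the unadjusted p is under 0.05, and the list median as a bar. Medians run from −0.22 for the 10 genes to 0.23 for the muscle actins, leaving out the list with Srf alone.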

How the data were processed

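Gene expression was measured on 1-colour Affymetrix arrays with biotin-labelled total RNA extracted with Trizol, per the labels' protocols. The deposited table holds log2 expression values of 27596 probe sets on 8 arrays, used as the authors deposited them. The log2 scale was read from the range, 0.88 to 13.26. Transcriptome Analysis Console 4.0 is named per the submitters' processing notes, while the steps of summarising, background correction and normalization are not given in the sources used. An array has no read depth, and 4 arrays per group limit the precision. No detection call was used, so dim values can be background and their differences compressed.

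Probe sets with exactly 1 symbol in the platform annotation (15310) were named, and symbols were updated by gene ID in RefSeq (GRCr8; 15279 matched). Of several probe sets the brightest by its 8-array mean stood for the gene, giving 14506 genes, and the 10 actin and tubulin genes have 16 probe sets. Groups were compared with limma 3.58.1 in R 4.3.3 (lmFit and eBayes, group as the only term, two-sided, Benjamini-Hochberg over all genes, threshold 0.05). Intervals are 95% from that fit. A single difference was tested by exact permutation over samples. The script was tested on simulated data with the means and spreads of the 14506 genes. There 33 of 100 genes changed by 0.5 log2 units and 86 of 100 changed by 1 unit were called, with 6 false calls.

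The 10 genes and the lists were chosen with earlier results of these data known. Named are the 10 genes. From each other list up to 4 called genes are named or, with none called, those with the highest and lowest change, and the 3 nearest profiles for the 3 genes of largest spread. Alternatives changed the normalization (quantile, or array medians subtracted), the prior (trended and robust), the weights of arrays, the handling of probe sets (their mean per gene, or all of them) or the genes kept (without the dimmest 25%). Others used the replicate number as a block or left out 1 array.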

Additional observations from a re-analysis of the deposited data

Results flagged for a closer look

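Of 92 groups of 4 samples looked at, 9 had a highest or lowest sample far from the rest, with a gap to its nearest neighbour, as a share of the whole range, above Dixon's critical value for 4 samples. Chance gives about 1 in 20. Among the actin and tubulin genes 4 of 20 groups were of this kind, all hypoosmotic. Hypoosmotic replicate 1 was the high sample for Tubb4b, at 7.33 with a gap of 0.929 of the range, and for Tuba1c, at 9.29 with a gap of 0.857. Hypoosmotic replicate 2 was the low sample for Tubb2b, at 4.15 with 0.833, and the high sample for Tubb6, at 7.75 with 0.867. Among the other named genes it was normoosmotic replicate 4 for Tmsb10 (high, 0.837), Lyve1 (high, 0.836) and Krt7 (low, 0.839). It was normoosmotic replicate 2 for Vash2 (high, 0.893) and normoosmotic replicate 1 for Ttll12 (low, 0.840). What set these samples apart was not tested.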

How the results depend on the processing

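Under 16 alternatives each, 158 of 160 values of single genes among the 10 kept their direction and their side of the threshold. Some alternatives, such as the trended prior and the replicate block, leave the log2 change itself unaltered, so its direction was fixed there. Tubb2a passed without hypoosmotic replicate 1, where Tubb5 changed sign to a log2 change of −0.11 (range with 1 array left out −0.11 to 0.13). The cause was not tested. The number of the 10 genes called lower was therefore between 0 and 1 with 1 array left out, and 0 were called higher under any of the 16. The number called over all genes was 81 to 365 with 1 array left out, in fits with fewer arrays. The lowest counts came from leaving out normoosmotic replicate 3 (108) or 1 (117), or hypoosmotic replicate 2 (81), 1 (155) or 3 (156). Under the other alternatives it was 256 to 395. Of the 165 genes in the lists, 1, Krt8, was called with the trended and robust prior. Actb minus Actg1 differed by −0.42 to −0.18 with 1 array left out. The exact p was 0.0286 without normoosmotic replicate 3, whose removal ends the overlap by construction, and 0.171 to 0.314 without any 1 of the other 7 arrays. Subtraction of array medians lowered the log2 change of Tubb5 to 0.015 and of Tubb6 to 0.048. Quantile normalization and subtraction of array medians moved the median of all genes by at most 0.03 log2 units. Deviations of same-numbered samples from their group means had correlations of 0.046, 0.028, 0.083 and 0.173 over all genes. Those of differently numbered samples ran from −0.302 to 0.206. The same-numbered values lie within this range, so the numbers were not taken to pair the samples. With the replicate number as a block 256 genes were called in place of 287, and 0 of the 10 genes. The signal of each array over background could not be assessed, since no detection call was used.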
